A study of Mus musculus with 8 samples.

Results

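The genes that encode the proteins of the cytosolic and the mitochondrial ribosome were followed in mouse back skin with and without Flg. Members were all protein-coding genes whose symbol was Rpl, Rps, Rplp, Mrpl or Mrps followed by a number, without pseudogenes and without the ribosomal S6 kinases. The rule gave 162 of the 49671 genes in the count table. Of these, 84 belonged to the cytosolic ribosome (52 of the large and 32 of the small subunit) and 78 to the mitochondrial ribosome (49 large and 29 small by symbol). The RNA was that of total back skin, shaved, from mice aged 8 weeks. A wild-type group labelled wt/wt and a Flg-deficient group labelled ko/ko held 4 libraries each. The sources used here do not give the strain, the sex, the kind of Flg allele or any mutation beside it. Nothing in the labels says outright that the 4 libraries of a group came from 4 mice, so p-values measure the spread between these samples.

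A ribosome is a large and a small subunit, each built from ribosomal RNA and many different proteins. The cytosolic ribosome translates all nuclear-encoded messages. Its protein genes carry a terminal oligopyrimidine (TOP) tract, a run of C and T bases at the start of the transcript through which growth signalling sets the translation of these messages together. The mitochondrial ribosome translates only the few messages encoded in mitochondrial DNA, and all of its proteins are made in the cytosol and imported. Several cytosolic ribosomal proteins are known in mouse skin, where mutant alleles alter pigmentation or the coat.

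The start regions of members on which the values below turn are shown because the TOP tract is the feature that the cytosolic messages share. They are RefSeq promoter entries of the mouse build GRCm38.p6 (mm10), each holding 30 bases before and 20 bases from the start, written 5′ to 3′ on the gene's own strand. In the cytosolic genes the capitals mark the longest run of C and T near the start. Rpl34 had 2 entries. They lie at chr3:130730379-130730428 and chr3:130730318-130730367 on the minus strand. The others are Rps9 (chr7:3704011-3704060, plus), Rps27 (chr3:90213629-90213678, minus), Rpl4 (chr9:64173357-64173406, plus), Rplp2 (chr7:141447621-141447670, plus), Rps15 (chr10:80292401-80292450, plus) and the muscle paralogue Rpl3l (chr17:24727796-24727845, plus).
Rpl34, first entry: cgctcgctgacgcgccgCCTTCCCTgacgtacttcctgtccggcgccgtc
Rpl34, second entry: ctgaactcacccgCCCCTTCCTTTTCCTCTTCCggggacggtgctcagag
Rps9: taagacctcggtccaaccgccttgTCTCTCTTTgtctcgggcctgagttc
Rps27: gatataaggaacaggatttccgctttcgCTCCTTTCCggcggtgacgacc
Rpl4: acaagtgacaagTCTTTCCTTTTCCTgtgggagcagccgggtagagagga
Rplp2: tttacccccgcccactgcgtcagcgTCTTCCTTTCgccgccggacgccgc
Rps15: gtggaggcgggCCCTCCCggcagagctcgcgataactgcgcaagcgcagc
Rpl3l: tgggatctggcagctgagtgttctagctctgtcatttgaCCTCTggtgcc

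The run was 20 bases long in the second Rpl34 entry, 14 in Rpl4, 10 in Rplp2, 9 in Rps9 and Rps27, 8 in the first Rpl34 entry, 7 in Rps15 and 5 in Rpl3l. Of the cytosolic genes, 64 had an entry. A run of at least 8 C or T bases on the sense strand, from 20 bases before to 30 bases after the start, was present in 53.1% of them. The share was 23.2% among the 69 mitochondrial genes with an entry and 21.5% among all 27025 genes. The sense letters CTTTCC stood in that stretch in 20.3% of cytosolic genes, 2.9% of mitochondrial genes and 2.83% of all genes. Pyrimidine runs near the start were therefore common on the cytosolic side and near the level of all genes on the mitochondrial side. The marked runs of the first Rpl34 entry, Rpl4 and Rps15 ended before the annotated start, and that of Rpl3l began after it. A run in this stretch is therefore not by itself a TOP tract.

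The mitochondrial genes are shown with the binding core of ETS factors in capitals, CCGGAA or its reverse complement, because this motif was as common there as in the cytosolic genes. The entries are Mrpl43 (chr19:45006423-45006472, minus), Mrps26 (chr2:130563727-130563776, plus) and Mrps12 (chr7:28741802-28741851, minus), with Mrpl41 (chr2:24975079-24975128, minus) as a member without the motif in this stretch.
Mrpl43: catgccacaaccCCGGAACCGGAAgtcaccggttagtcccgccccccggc
Mrps26: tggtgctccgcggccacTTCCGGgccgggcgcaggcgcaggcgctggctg
Mrps12: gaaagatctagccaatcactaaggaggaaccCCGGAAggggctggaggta
Mrpl41: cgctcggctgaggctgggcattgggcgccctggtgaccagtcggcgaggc

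Over the full entries, from 250 bases before to 50 bases after the start and on both strands, CCGGAA stood in 58.0% of mitochondrial and 54.7% of cytosolic genes, against 16.7% of all genes. ATGGCG, the core of the YY1 site, stood in 27.5% of mitochondrial and 32.8% of cytosolic genes, against 10.2%. GCGCATGC, the core of the NRF1 site, stood in 11.6% of mitochondrial and 4.69% of cytosolic genes, against 3.05%. The TATA box letters TATAAA stood in 7.25% and 10.9%, against 15.7%. The reverse complement of CCGGAA contains TTCC, so an ETS core on that strand can overlap a pyrimidine run. These matches describe letters and are not measured binding sites.

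Flg itself checked the genotype labels. Flg (ENSMUSG00000102439) stood at 66.8, 46.4, 56.0 and 66.5 CPM (read counts relative to the normalised library total) in wild-type replicates 1 to 4 and at 27.0, 24.6, 24.1 and 22.2 CPM in knockout replicates 1 to 4. Every knockout library lay below every wild-type library, with reads left in all of them. Its log2 fold change was -1.27 ± 0.12 (SE; edgeR quasi-likelihood test, adjusted p = 0.00326). An exact 2-sided permutation test on CPM gave p = 0.0286, the smallest that 4 against 4 allows. Library totals ran from 18483242 to 38545957 counts. Skin was represented by its markers in every library, with the 8 basal keratinocyte markers summing to 8144 to 10012 CPM and the 7 fibroblast markers to 23061 to 37050 CPM. The 12 skeletal muscle markers summed to 18820 to 29504 CPM, so the tissue held muscle beneath the skin. In such bulk tissue, fewer cells of a type and less RNA per cell cannot be told apart. Wild-type replicate 3 stood apart from the other wild-type libraries in the cytosolic genes, as given below, and results that rest on it are given with and without it.

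Most cytosolic ribosomal protein genes had lower mean levels in the knockout libraries, but edgeR called none of them with all 8 libraries. They took 0.876%, 0.842%, 0.620% and 0.853% of all counts in wild-type replicates 1 to 4 and 0.633%, 0.711%, 0.626% and 0.618% in knockout replicates 1 to 4. Wild-type replicate 3 thus lay among the knockout libraries, and the other 3 wild-type libraries lay above all of them. The group means were 0.798% ± 0.120 and 0.647% ± 0.0429 (SD, n = 4 each). Mitochondrial members took 0.205%, 0.183%, 0.159% and 0.207% in the wild-type libraries and 0.163%, 0.186%, 0.172% and 0.171% in the knockout libraries, and the groups overlapped, with wild-type replicate 3 the lowest of the 8.

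Gene by gene, 83 cytosolic and 77 mitochondrial members passed the filter on low counts. Rpl10l, a retrogene copy of Rpl10 known from the testis, and Mrpl53 did not. Rpl10l averaged 0.0769 CPM in wild type and 0.0197 CPM in knockout. No cytosolic and no mitochondrial member was called at an adjusted p under 0.05 by edgeR, where 1.41% of the 19099 tested genes were called, 0.702% lower and 0.712% higher. At an unadjusted p under 0.05, 35 cytosolic members lay lower and 0 higher in knockout, where 10.9% of all genes lay lower and 8.64% higher (19.5% in all). On the mitochondrial side 5 lay lower and 1 higher. Other treatments of the same 8 libraries called more. Without the filter on low counts edgeR called Rpl34 lower, against 0.739% of all genes called lower. DESeq2 called 2 cytosolic members, Rpl34 and Rps9, both lower, against 2.73% of all genes called lower. limma voom with library quality weights called 34 cytosolic and 5 mitochondrial members, all lower, against 7.13% of all genes called lower.

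The log2 fold change was below 0 for 81 of the 83 cytosolic members, for 65 of the 77 mitochondrial members and for 53.3% of all tested genes. Its median was -0.30 over cytosolic members, with the middle of the distribution from -0.38 to -0.21, and -0.12 over mitochondrial members, against -0.019 over all tested genes. Cytosolic members of the small subunit had a median of -0.33, with 32 of 32 below 0, and those of the large subunit -0.28, with 49 of 51 below 0. The 2 mitochondrial subunits had medians of -0.12 each. A single member's SE had a median of 0.15 (cytosolic) or 0.12 (mitochondrial).

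The 2 ribosomes also differed from each other within each library. The summed level per length (TPM, read counts divided by gene length and scaled to the same sum in every library) of the cytosolic members, divided by that of the mitochondrial members, was 6.06, 6.51, 5.58 and 5.80 in wild-type replicates 1 to 4. The ratio was 5.54, 5.43, 5.21 and 5.17 in knockout replicates 1 to 4. All knockout libraries lay below all wild-type libraries, by a narrow margin at wild-type replicate 3. On the log2 scale, the mean over cytosolic members minus the mean over mitochondrial members was 0.64, 0.64, 0.43 and 0.49 in the wild-type libraries and 0.37, 0.39, 0.35 and 0.34 in the knockout libraries. The groups did not overlap here either, although both means that form the gap did. Over members that share little sequence with other genes the groups did overlap in this gap, as given below. Because the members were chosen with these data known, no p-value is attached to the ratio.

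**Figure D1:**
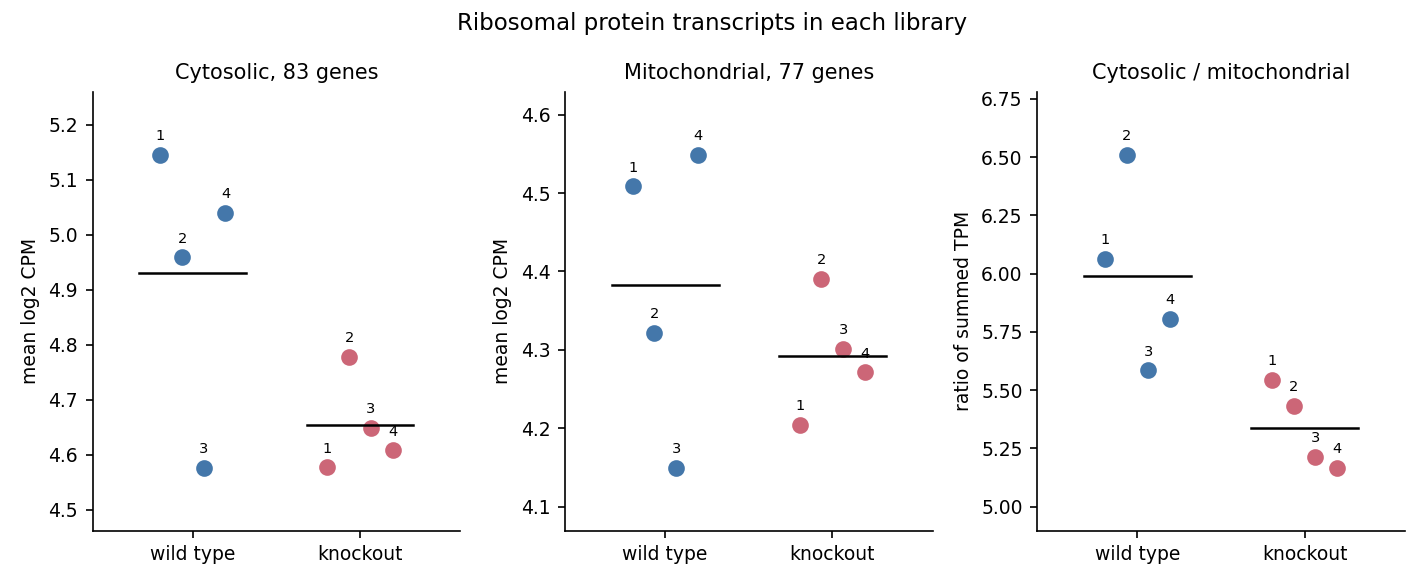
Mean log2 CPM of the 83 tested cytosolic members (left) and the 77 tested mitochondrial members (middle), and the ratio of their summed TPM over all 162 members (right). Points are libraries with their replicate number and lines are group means; wild-type replicate 3 lies with the knockout libraries at left, while at right the wild-type libraries span 5.58 to 6.51 and the knockout libraries 5.17 to 5.54.

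The number of cytosolic members that edgeR called differed with and without wild-type replicate 3. This library was the highest library for 0 of the 83 cytosolic members and the lowest for 25, while wild-type replicate 1 was the highest for 47 and knockout replicate 4 the lowest for 29. Wild-type replicate 3 was singled out by its low values in these same genes, so leaving it out was bound to widen their difference. The values without it, here and below, describe dependence on 1 library and are no independent support. Without wild-type replicate 3, edgeR called 33 cytosolic members, all lower in knockout (39.8% of 83), against 3.32% of 19429 tested genes called lower. Their median log2 fold change was then -0.38, and 56 of them lay lower with no overlap between groups (67.5%), against 12.2% of all tested genes. No mitochondrial member was called without it and the mitochondrial median was -0.15. Of the 39 members that voom called, 32 were among those 33. The voom fit used the libraries of the edgeR fit and wild-type replicate 3 besides, and quality weights can lower the weight of a deviating library. This overlap is therefore no independent support.

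White adipocyte markers stood high in the knockout libraries and in wild-type replicate 3. Of the 10 markers, 9 had a log2 fold change above 0 and 0 were called. The groups of 3 markers did not overlap, all higher, where 5.57% of all tested genes lay higher without overlap. Without wild-type replicate 3, 7 of the 10 were called higher, against 679 of 19429 tested genes. The median log2 fold change of the 10 was then 1.18. Their summed level was 1002 to 2759 CPM in wild type and 2031 to 3170 CPM in knockout, and none was at 0. Their mean log2 CPM was 6.38, 5.81, 7.28 and 5.95 in wild-type replicates 1 to 4, highest in replicate 3, and 7.58, 7.67, 6.86 and 7.52 in knockout. The 6 smooth muscle and pericyte markers summed to 1189 to 1409 CPM in wild type and 1428 to 1705 CPM in knockout, without overlap. The 7 T cell markers summed to 174 to 282 CPM in wild type and 210 to 304 CPM in knockout, while their mean log2 CPM was 3.25 to 3.68 in wild type and 2.54 to 3.25 in knockout, so the sum and the mean differed in direction. The means did not overlap, by a narrow margin. Of the 7, 3 lay lower without overlap, against 5.95% of all tested genes. With all 8 libraries edgeR called 1 of them (adjusted p = 0.0483), against 1.41% of all tested genes. The part of these cell types in the ribosomal values was not tested.

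Among large subunit proteins, Rpl34, which sits on the outer face of the subunit, had the smallest p. It stood at 104, 90.2, 67.7 and 100 CPM in wild-type replicates 1 to 4 and at 61.4, 67.3, 64.6 and 58.5 CPM in knockout replicates 1 to 4. All knockout libraries lay below all wild-type libraries, with wild-type replicate 3 just above the highest knockout library. Its log2 fold change was -0.52 ± 0.12 (SE; edgeR adjusted p = 0.0625). Rpl23, a structural protein of this subunit, had a log2 fold change of -0.35 ± 0.12 (adjusted p = 0.156). The lowest value of the subunit was that of Rpl26, which lies near the exit of the peptide tunnel, at -0.56 ± 0.23 (adjusted p = 0.219) from a low mean of 6.09 CPM in wild type and 4.12 CPM in knockout. Rpl8, one of the 2 with the highest level per length, had 564 ± 93.3 and 498 ± 19.4 CPM (SD, n = 4 each) and a log2 fold change of -0.18 ± 0.12. Without wild-type replicate 3, edgeR called Rpl34 at -0.63 ± 0.077 (adjusted p = 0.00493), and Rpl23 and Rpl26 at -0.46 and -0.75.

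The stalk of the large subunit, which recruits the elongation factors, consists of Rplp0, Rplp1 and Rplp2. Rplp1 had 420, 346, 244 and 412 CPM in wild-type replicates 1 to 4 and 253, 314, 270 and 242 CPM in knockout replicates 1 to 4. Wild-type replicate 3 lay second lowest of the 8 libraries, and the other 3 wild-type libraries lay above all knockout libraries. The log2 fold change of Rplp1 was -0.40 ± 0.16 (adjusted p = 0.213). Rplp0, the base of the stalk, had 296 ± 43.0 and 234 ± 17.1 CPM and -0.34 ± 0.11 (adjusted p = 0.141). Rplp2 had -0.16 ± 0.20 (adjusted p = 0.701), and knockout replicate 2, at 24.5 CPM, was above 3 of the 4 wild-type libraries. Rpl5 and Rpl11, which bind the smallest ribosomal RNA and can hold the p53 regulator Mdm2, had -0.28 ± 0.14 and -0.24 ± 0.17. Rplp0 and Rplp1 were called without wild-type replicate 3, at -0.42 ± 0.092 and -0.53 ± 0.11 (adjusted p = 0.0314 and 0.0252), and Rplp2 was not, at -0.27 ± 0.19.

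In the small subunit, Rps9, a protein that shapes decoding accuracy, had the smallest p. It stood at 353, 296, 261 and 338 CPM in wild type and 241, 259, 247 and 233 CPM in knockout, with no overlap, and wild-type replicate 3 was nearest to the knockout libraries. Its log2 fold change was -0.35 ± 0.10 (adjusted p = 0.108). Rps27a, which is made as a fusion with ubiquitin, had 13.1, 9.75, 8.79 and 11.7 CPM in wild type and 6.76, 8.34, 8.03 and 8.14 CPM in knockout. Its groups did not overlap, and its log2 fold change was -0.48 ± 0.15 (adjusted p = 0.120). Rps15, which lies near the decoding centre, had 353 ± 61.7 and 263 ± 26.6 CPM and -0.43 ± 0.13 (adjusted p = 0.123), and its groups overlapped. Rps27, a zinc-binding protein, had the lowest fold change of all members, -0.58 ± 0.19 (adjusted p = 0.137), at 4.15 ± 0.885 and 2.79 ± 0.359 CPM. At the other end of the subunit stood Rps4x, the X-linked copy of Rps4, with -0.16 ± 0.091. Leaving out wild-type replicate 3 brought Rps9, Rps27a, Rps15 and Rps27 past the test, at -0.42, -0.56, -0.53 and -0.69, with adjusted p from 0.0164 to 0.0422.

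The groups of 5 cytosolic members did not overlap, all lower in knockout, Rpl34, Rpl6, Rps9 and Rps27a among them. This is 5 of 83, where 5.95% of all tested genes lay lower and 5.57% higher without overlap, so with wild-type replicate 3 in the data this count is near the background.

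**Figure D2:**
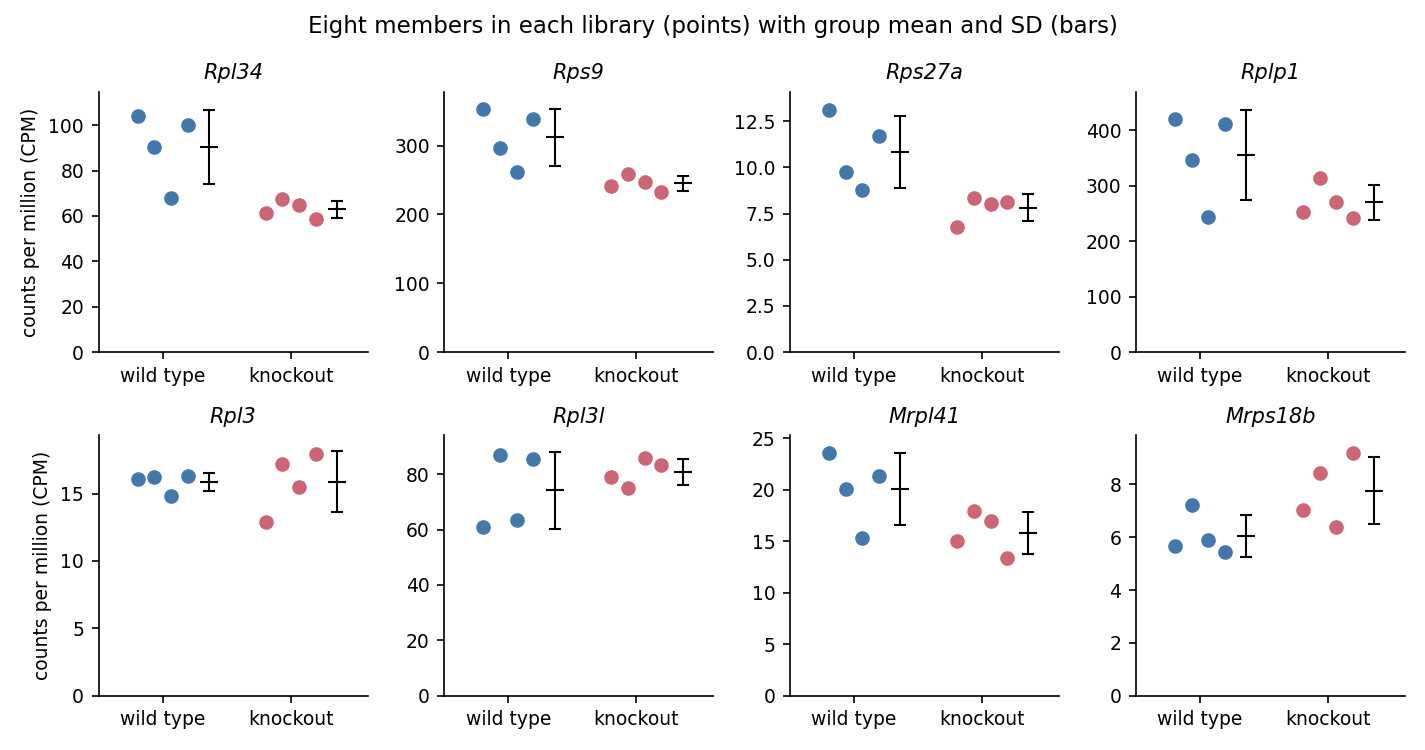
CPM of 8 members in each library (points, replicates 1 to 4 from left to right) with the group mean and SD beside them; each vertical axis starts at 0. Rpl34, Rps9 and Rps27a show knockout points below all wild-type points, while Rpl3, Rpl3l, Mrpl41, Mrps18b and Rplp1 show overlapping groups.

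Of 7 ribosomal genes listed for a coat or skin phenotype, all 7 had a log2 fold change below 0, with a median of -0.32, and 0 were called. Rps20 and Rps19 are the genes of dark-skin mutants. Rps20 had 166 ± 37.5 and 121 ± 10.1 CPM, with -0.45 ± 0.15 (adjusted p = 0.154), and Rps19 had 49.7 ± 6.89 and 39.8 ± 3.48 CPM, with -0.32 ± 0.11 (adjusted p = 0.163). In both genes wild-type replicate 3 overlapped the knockout libraries. Rps7 had -0.46 ± 0.19 and Rpl27a -0.32 ± 0.14. Rpl24, whose mutation gives a white belly spot and a kinked tail, had -0.20 ± 0.21, Rpl38 -0.21 ± 0.30 and Rpl21 -0.17 ± 0.18. Without wild-type replicate 3, 3 of the 7 were called, Rps20 at -0.60, Rpl27a at -0.44 and Rps19 at -0.41. This share of 42.9% was near the 39.8% of all cytosolic members called in that fit, so the count is not particular to this list. The 5 melanocyte markers summed to 68.1, 33.2, 76.3 and 69.5 CPM in wild-type replicates 1 to 4. In knockout replicates 1 to 4 they summed to 101, 32.3, 33.5 and 34.0 CPM. Of these markers, 4 had a log2 fold change below 0. With all 8 libraries edgeR called 1 of them lower (adjusted p = 0.0231), against 0.702% of all tested genes called lower. The part of melanocytes in the ribosomal values was not tested.

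Paralogue pairs did not all lie on the same side. Rpl3l replaces Rpl3, a protein at the peptide-bond-forming centre, in adult striated muscle. Rpl3l had 61.0, 86.8, 63.4 and 85.6 CPM in wild type and 79.2, 75.1, 85.7 and 83.2 CPM in knockout. The groups overlapped, and the log2 fold change of 0.12 ± 0.12 (adjusted p = 0.607) was the highest of all cytosolic members. Skeletal muscle markers summed to 18820, 24607, 26156 and 26791 CPM in wild-type replicates 1 to 4. Wild-type replicate 1 was the lowest library in both. Wild-type replicate 3, the next lowest in Rpl3l, lay above wild-type replicate 2 in the markers. The part of muscle content in Rpl3l was not tested. Rpl3 had 16.1, 16.2, 14.9 and 16.3 CPM in wild type and 12.9, 17.2, 15.5 and 17.9 CPM in knockout. Its groups overlapped, and the log2 fold change was -0.0026 ± 0.12, a sign that turned under several settings. Rpl7l1, a nucleolar relative of Rpl7, was the only other cytosolic member above 0, with 0.065 ± 0.12 against -0.23 ± 0.11 for Rpl7, and it lay below 0 without wild-type replicate 3 (-0.026).

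In the pairs of Rpl22, Rpl39, Rps27 and Rpl36a both genes lay below 0. Rpl22, a protein that also binds other RNAs, had -0.34 ± 0.12 and its paralogue Rpl22l1 -0.35 ± 0.21. Rpl39 had -0.45 ± 0.16 and Rpl39l, a copy best known from male germ cells, -0.16 ± 0.20. Rps27l, a p53 target, had -0.24 ± 0.16 beside -0.58 for Rps27, and Rpl36a and Rpl36al had -0.28 ± 0.16 and -0.33 ± 0.16. Rpl10, whose paralogue Rpl10l was not tested, had -0.11 ± 0.17, with a sign that turned without knockout replicate 1. Rpl22 and Rpl39 were called without wild-type replicate 3, at -0.45 and -0.59, and Rpl3l lay at 0.062 there. Differences within pairs were not tested.

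Mitochondrial members had a median nearer 0 and reached further above 0 than cytosolic members, up to 0.38 against 0.12. Mrpl41, a protein of the large subunit, had the smallest p of them. It stood at 23.6, 20.1, 15.3 and 21.4 CPM in wild type and 15.0, 18.0, 17.0 and 13.3 CPM in knockout. Wild-type replicate 3 lay among the knockout libraries and the other 3 lay above them. Its log2 fold change was -0.35 ± 0.14 (adjusted p = 0.222). Without that library it was -0.45 ± 0.12 (adjusted p = 0.0513). In the same subunit Mrpl48, Mrpl46 and Mrpl43 had -0.28 ± 0.12, -0.27 ± 0.12 and -0.26 ± 0.12. Mrpl24 was the 1 mitochondrial member whose groups did not overlap, with a log2 fold change of only -0.070 ± 0.074.

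The 3 genes of the Mrps18 family encode relatives of a single bacterial protein that occupy different places in the mitochondrial ribosome, and the product of Mrps18a sits in the large subunit despite its name. Mrps18b had 5.65, 7.22, 5.89 and 5.46 CPM in wild type and 7.04, 8.45, 6.41 and 9.19 CPM in knockout. Knockout replicates 2 and 4 lay above all wild-type libraries, and the groups overlapped. Its log2 fold change was 0.36 ± 0.15 (adjusted p = 0.236), the only one among all members at an unadjusted p under 0.05 that lay above 0. Mrps18c had -0.29 ± 0.13 and Mrps18a -0.036 ± 0.096. The highest mitochondrial value belonged to Mrps6, at 0.38 ± 0.21, and the lowest to Mrps33, at -0.36 ± 0.19. Mrps6 ranged from 12.2 to 23.1 CPM within wild type alone. Mrps26 had -0.27 ± 0.12, and Mrpl23 had 0.25 ± 0.24 at a mean of 2.86 and 3.40 CPM.

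**Figure D3:**
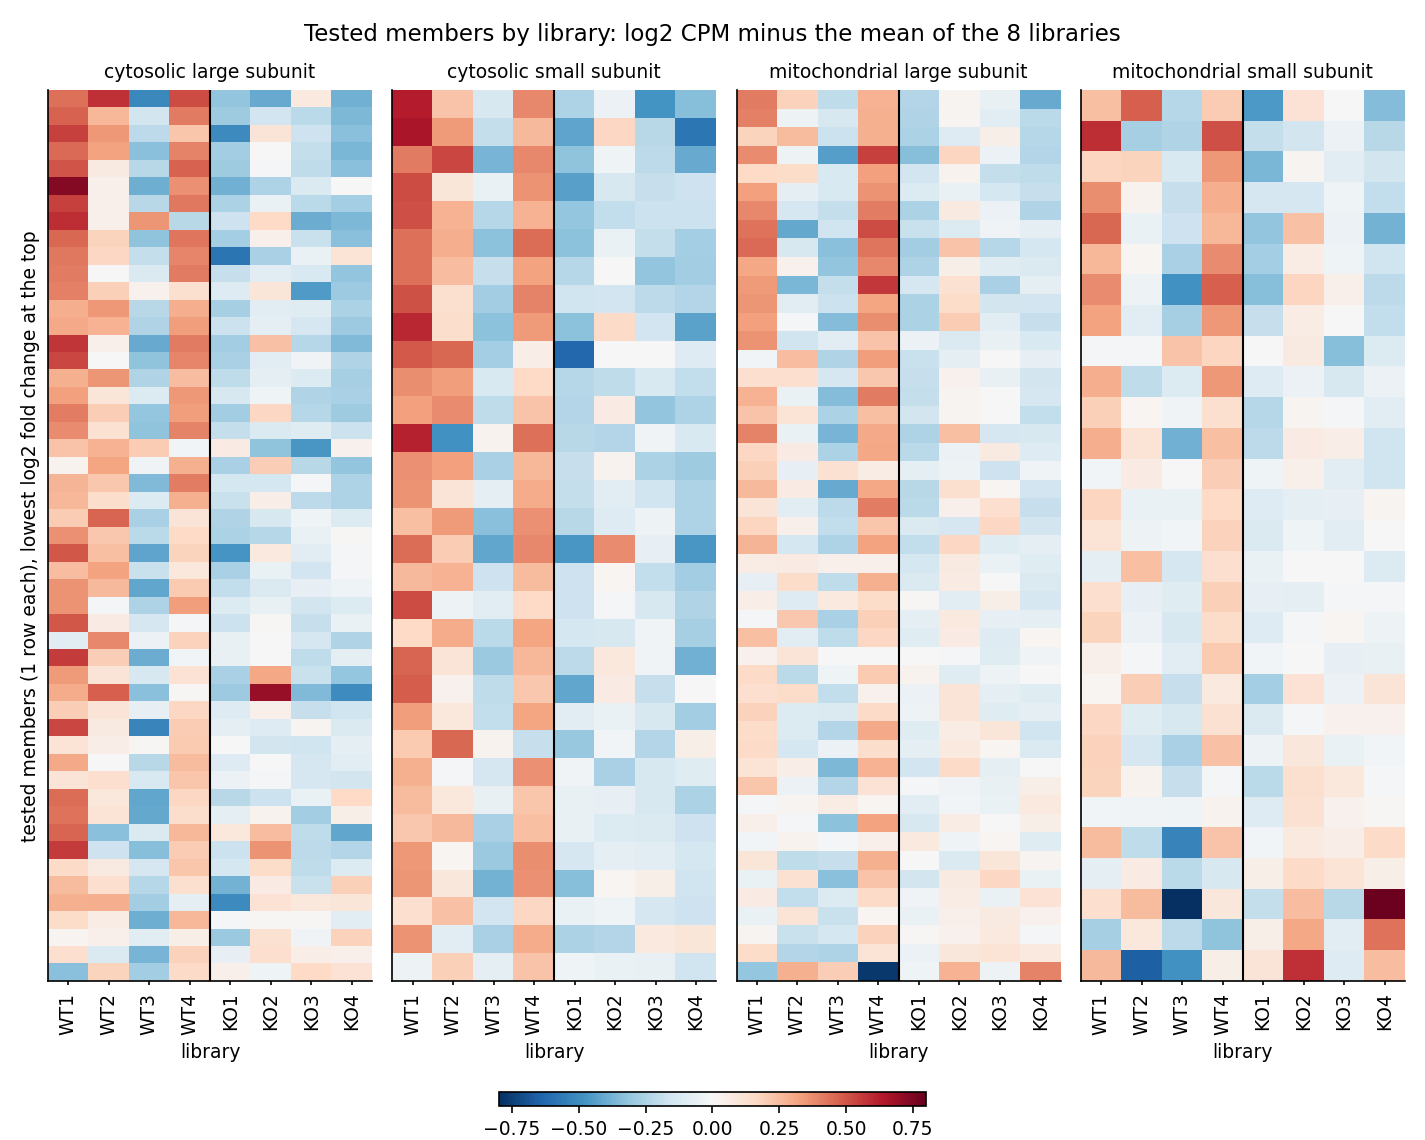
Log2 CPM of each of the 160 tested members minus its own mean over the 8 libraries, for the 4 subunits, with rows ordered by log2 fold change (lowest at the top) and wild type left of the line. Wild-type replicates 1 and 4 are red over most cytosolic rows, wild-type replicate 3 is blue like the knockout libraries, and the mitochondrial rows are paler.

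The level per length differed widely among proteins of which a ribosome holds about equal numbers. The median mean TPM was 51.0 over cytosolic members and 34.3 over mitochondrial members. The highest cytosolic members were Rplp1 at 1964 TPM, Rpl8 at 1937 TPM, Rps15 at 1536 TPM and Rpl4 at 1353 TPM. Among tested ones the lowest were Rpl29 at 3.43 TPM, Rpl23a at 4.40 TPM, Rpl21 at 4.88 TPM and Rps2 at 5.38 TPM. The highest mitochondrial members were Mrpl42 at 172 TPM and Mrps16 at 94.8 TPM.

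Sequence shared with other genes moved with this level on the cytosolic side. Of the 50-base words in a member's main transcript, a median of 43.5% also occurred in an annotated transcript of another gene for cytosolic members and 0.0481% for mitochondrial members. A cytosolic member shared words with a median of 8 annotated pseudogenes and at most 119, against 0 and at most 7 for a mitochondrial member. Across the 83 tested cytosolic members, Spearman's rho between the number of pseudogenes and the mean TPM was -0.50, and between the shared percentage and the mean TPM -0.41. These points are genes of the same 8 libraries, so the values are descriptions. The sources used here do not say how reads with several alignments were counted, so the levels of members that share sequence are uncertain. Rpl3 is an example, with 85.6% of its words shared and 16.1 TPM, beside Rpl3l with 0% shared and 149 TPM. As Rpl3l replaces Rpl3 in adult striated muscle, shared sequence and muscle content cannot be told apart in this pair. Rplp1 went the other way, with 60.0% shared and the highest level, 1964 TPM.

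The difference between genotypes did not follow the shared sequence in the same way. The median log2 fold change was -0.20 over the 9 tested cytosolic members with under 10% of words shared, which include Rpl3l and Rpl7l1, -0.30 over the 40 with 10% to under 50%, and -0.29 over the 34 with 50% or more. Across cytosolic members, rho between shared percentage and log2 fold change was -0.094 (n = 83). Over the 9 cytosolic members with under 10% shared, the mean log2 CPM was 6.75 in wild-type replicate 3 and 7.02 in knockout replicate 2. Over the 63 such mitochondrial members it was 4.35 and 4.56. The gap between these means was smaller in wild-type replicate 3 than in knockout replicate 2, so the groups overlapped in it. The 129 tested entries annotated as cytosolic ribosomal pseudogenes had a median log2 fold change of -0.30, with 121 below 0 and 0 called. Reads assigned to all 272 such entries equalled 31.0% to 32.2% of the reads assigned to the cytosolic members in every library, with no difference between genotypes beyond the spread (31.8% ± 0.305 and 31.7% ± 0.445).

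**Figure D4:**
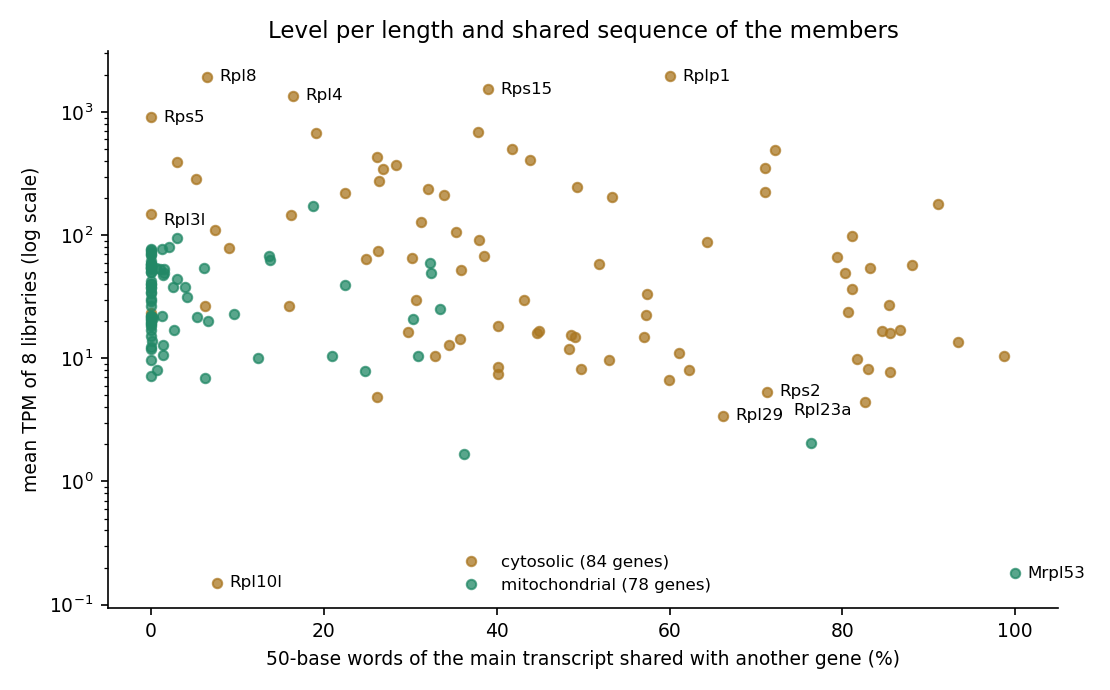
Mean TPM over the 8 libraries (log scale) against the percentage of 50-base words of the main transcript that also occur in another gene, for 84 cytosolic and 78 mitochondrial members. Mitochondrial members crowd at the left between about 10 and 100 TPM, and cytosolic members spread over the whole width, from 1964 TPM for Rplp1 to a few TPM for Rpl29, Rpl23a and Rps2.

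Gene length moved with the log2 fold change over the whole table, with a rho of 0.23 across 19099 genes, so short genes lay lower in knockout. Merged exon length had a median of 1657 bases in cytosolic and 2068 bases in mitochondrial members. Values within bands of length are given as a description, and the part of length in the result was not tested. Under 1000 bases the median log2 fold change was -0.30 for 21 cytosolic members, -0.21 for 12 mitochondrial members and -0.13 for other genes. From 1000 to under 2000 bases it was -0.33, -0.14 and -0.10, and from 2000 to under 4000 bases -0.24, -0.070 and -0.046. At 4000 bases or more it was -0.36 for 5 cytosolic members, -0.073 for 20 mitochondrial members and 0.037 for other genes. In each band the mitochondrial median lay nearer than the cytosolic one to that of other genes. With gene length as an offset in the fit the cytosolic median was -0.24.

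**Figure D5:**
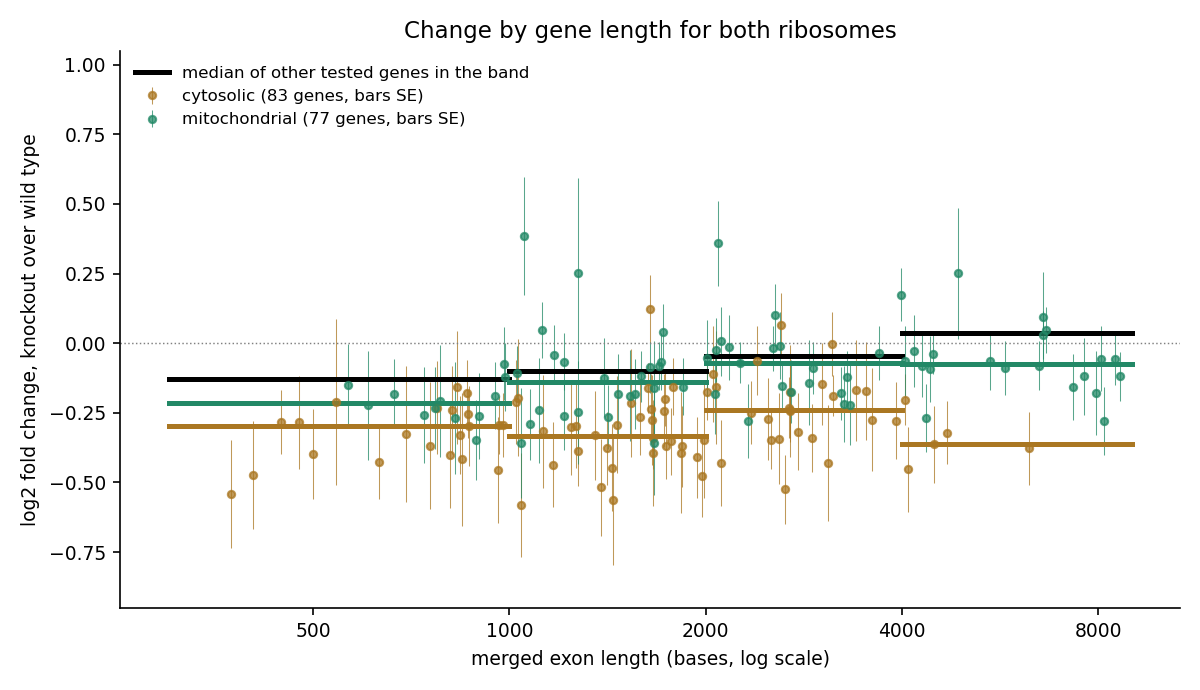
Log2 fold change (points, with SE as bars) against merged exon length (log scale) for the tested members of both ribosomes. Thick lines are medians within 4 bands of length: the cytosolic lines, at -0.24 to -0.36, lie below the lines of other genes in all bands, and the mitochondrial lines lie closer to them.

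The start motifs did not separate members with larger and smaller differences. The median log2 fold change was -0.28 over 34 tested cytosolic genes with a pyrimidine run of at least 8 bases and -0.30 over 29 without one. With and without an ETS core it was -0.28 and -0.33 in cytosolic genes, and -0.12 and -0.081 in mitochondrial genes.

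Genes of the wider translation machinery were compared as lists, none of which held a called gene with all 8 libraries. Cytosolic ribosomal proteins under other symbols lay with the members, 4 of 4 below 0 with a median of -0.32. Among them the laminin receptor protein Rpsa had -0.33 ± 0.15 and Fau -0.31 ± 0.14. Of 16 elongation factors and other known TOP messages 12 lay below 0, with a median of -0.11. Eef1b2, the exchange factor of the elongation factor that delivers transfer RNA, had 296 ± 36.6 and 226 ± 14.9 CPM and -0.39 ± 0.10 (adjusted p = 0.0846), and the initiation subunit Eif3h had -0.29 ± 0.087 (adjusted p = 0.111). Of 24 initiation factors 13 lay below 0, with a median of -0.037, and the scaffold Eif4g1 had 0.30 ± 0.090 (adjusted p = 0.113). The 14 subunits of the proteasome core, another abundant complex, had a median of -0.12, with 12 below 0. Without wild-type replicate 3, Rpsa (-0.46), Eef1b2 (-0.46) and Eif3h (-0.33) were called lower and Eif4g1 (0.36) higher. In all, 1 of the 4 ribosomal proteins under other symbols and 3 of the 16 TOP messages were called, all lower. Of the 24 initiation factors 1 was called lower and 2 higher. Over all genes tested in that fit, 3.32% were called lower and 679 of 19429 higher. The proteasome list had a median of -0.19 in that fit, with 1 gene called lower and 0 higher. Of its 14 genes, 7 lay lower without overlap, against 12.2% of all tested genes and 10 of 77 mitochondrial members. Lower values without that library were thus not limited to ribosomal genes.

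Genes of cytosolic ribosome biogenesis lay mostly above 0 with all 8 libraries. Of the 45 tested, 11 lay below 0 and 34 above, with a median of 0.11. At an unadjusted p under 0.05, 6 of the 45 lay higher, against 8.64% of all tested genes. Among other genes, 424 of 5829 with 2000 to under 4000 bases and 961 of 7906 with 4000 or more did so. The count is thus near that of long genes. Utp20, a factor of small subunit processing, had 49.6 ± 1.55 and 63.6 ± 5.85 CPM, with no overlap, and 0.36 ± 0.082 (adjusted p = 0.0578). The helicase Ddx21 had 0.39 ± 0.11 and Tsr1 0.34 ± 0.10. Polr1a, the largest subunit of RNA polymerase I, had 33.6 ± 3.84 and 46.2 ± 4.17 CPM, with no overlap, and 0.46 ± 0.10 (adjusted p = 0.0578), while the 20 genes of RNA polymerase I and its factors had a median of -0.10. Without wild-type replicate 3, Utp20 (0.37) was called higher, while the median of the biogenesis genes was 0.035. This list, unlike the cytosolic members, thus lay nearer 0 without that library. In the RNA polymerase I list Polr1a (0.47) was then called higher and 1 other gene lower, and the median was -0.16. In that fit 6.82% of all tested genes were called in either direction. The biogenesis genes were also longer than the members, with a median of 3450 bases.

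On the mitochondrial side, 30 translation factors and tRNA synthetases had a median of 0.037 and 29 assembly and RNA factors one of -0.060. Rbfa, which matures the small mitochondrial subunit, had -0.27 ± 0.083 (adjusted p = 0.116), Lrpprc, a stabiliser of mitochondrial messages, 0.55 ± 0.17 (adjusted p = 0.133) and the RNA polymerase Polrmt 0.23 ± 0.084. Mitochondrial ribosomal proteins under other symbols had a median of -0.078 over 5 genes, among them Aurkaip1 with -0.31 ± 0.12. The 15 mitochondrially encoded RNAs, the messages that this ribosome reads among them, had a median of 0.0098. Among 27 growth regulators of ribosome synthesis the median was 0.064, with the growth kinase Mtor at 0.26 ± 0.094, its partner Rptor at 0.21 ± 0.081 and Mxi1, an antagonist of Myc, at -0.23 ± 0.088. Aurkaip1 was called lower (-0.40) and Mtor (0.35) and Rptor (0.28) were called higher without wild-type replicate 3. They were among 4 of the 27 growth regulators called higher and 1 of the 5 mitochondrial proteins under other symbols called lower. Over all genes tested in that fit, 679 of 19429 were called higher and 3.32% lower.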

How the data were processed

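The deposited table holds whole-number read counts of each gene, not normalized. The submitters' processing notes name GSNAP, mm10 and featureCounts 1.6.2. The sources used here do not give the strand setting or the treatment of reads with several alignments. Per the labels, libraries followed a SMART protocol (design text) or the Ultra II Directional kit (sample text), which was not settled.

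Symbols came from GENCODE M21. Protein-coding symbols that started like members numbered 179; 6 pseudogene symbols, 10 S6 kinases and 1 binding protein were left out. The 92 spike-in rows were left out (highest count 1). Counts were fitted with edgeR 4.0.16 (TMM, filterByExpr, robust quasi-likelihood, Benjamini-Hochberg adjustment over all tested genes) in R 4.3.3, on 4 against 4 libraries without covariates; limma 3.58.1 and DESeq2 1.42.0 were alternatives, beside other scalings, filters, a length offset and leaving out each library. The fit was tested on simulated data. CPM used TMM library sizes; TPM used the deposited gene lengths. Shared sequence was counted as words of 50 bases; medians over members with little of it, and levels by main transcript length, were alternatives chosen after seeing the data.

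Named genes were Flg, any called member, in each subunit the 4 smallest p, the 2 highest levels and the highest and lowest fold change, all genes of 4 short lists, and the 3 smallest p of other lists; Rpl6, Mrpl24, Rpl4, Rpl29, Rpl23a, Rps2, Mrps12 and Mrpl53 were added after their values were seen. Members and lists were chosen with earlier results of these data known. RefSeq supplied the start regions; no protein sequences were used here. A few items under the rule are not reported here.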

Additional observations from a re-analysis of the deposited data

Results flagged for a closer look

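In 158 groups of 4 libraries that were checked, covering the named genes and the summed levels, 9 held a library far from the other 3; chance flags about 1 in 20 groups. Wild-type replicate 3 was the low one in 2 cytosolic members, Rpl23 (99.0 CPM) and Rps19 (39.3 CPM). Knockout replicate 2 was the high one in the summed level of the cytosolic members (16811 TPM), in Rplp2 (24.5 CPM), in Rpl38 (1.98 CPM) and in Rpl36al (30.4 CPM). Single high or low libraries were knockout replicate 3 in Rpl26 (5.16 CPM), and knockout replicate 1 in Rpl10 (12.1 CPM) and in Ddx21 (119 CPM).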

How the results depend on the processing

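No paired analysis was possible because the replicate numbers were given in accession order and pair nothing. The cytosolic median log2 fold change ran from -0.38 to -0.23 and the mitochondrial one from -0.15 to -0.06 when each library was left out in turn, and the gap between them from -0.24 to -0.14. Calls among cytosolic members ran from 0 to 33 (the latter without wild-type replicate 3), those among mitochondrial members stayed at 0, and the called genes over all genes ran from 11 (without knockout replicate 2) to 1325. Without a filter on low counts 1 cytosolic member (Rpl34) and 502 genes were called. DESeq2 called 2 cytosolic members and 1135 genes, and voom 34 cytosolic members, 5 mitochondrial members and 2535 genes. The cause of these differences in calls was not tested. The ratio of the 2 ribosomes averaged 3.98 without division by length.

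Among named genes the sign turned where the value lay near 0. Rpl3 lay at 0.011 with DESeq2 size factors, 0.012 in the DESeq2 test, 0.0020 with at least 10 counts in every library, 0.023 with the length offset and 0.017 in voom, and Rpl7l1 at -0.016 in voom. With a library left out in turn, Rpl3 ran from -0.066 to 0.089, Rplp2 from -0.31 to 0.034, Rpl10 from -0.20 to 0.024, Rpl7l1 from -0.026 to 0.14 and Mrps18a from -0.075 to 0.015. Low counts limit members such as Rpl38 and Rpl23a, and 4 libraries a group limit all tests.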
